A study of Mus musculus with 36 samples.

Results

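H3K9me3 intron peaks are the 1602 regions that the authors' deposited comparison of CSE knockout (KO) with wild-type (WT) cells places in an intron, among 5374 listed H3K9me3 peaks (29.8%). They were chosen by annotation alone, in both directions, and 982 of them had the higher signal in KO cells and 620 the lower. The whole series lists 13958 peaks for 3 histone marks. The cells were primary aortic smooth muscle cells, from mice lacking CSE in the whole body and from C57BL/6N mice. CSE (cystathionine gamma-lyase, encoded by Cth) is an enzyme that makes hydrogen sulfide. Both genotypes had received angiotensin II, a vasoconstrictor peptide, at 1 µM for 24 hours, so no untreated cells enter the comparison. Chromatin immunoprecipitation with sequencing (ChIP-seq) for H3K9me3 was done on 3 KO and 3 WT samples, each with an input library. The age and sex of the mice, and whether the 3 samples of a genotype came from separate animals, are not given in the labels.

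Trimethylation of lysine 9 on histone H3 marks heterochromatin. It is laid down by SETDB1 and the SUV39H enzymes, bound by HP1 proteins, and found over silent repeats, over clusters of zinc-finger genes and over genes that stay closed in a cell type. In introns it often covers integrated transposable elements, which KRAB zinc-finger proteins with TRIM28 target for silencing. An intron peak marks a position within a transcribed unit and says nothing by itself about the level of that gene's RNA.

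For each peak the authors give 1 signal value per genotype, on a log2 scale, and no value per sample. The spread between the 3 samples, the depth of each library and the effect of any 1 library could not be measured, and the authors' p-values refer to the spread between samples that may be technical replicates. The table lists peaks up to an unadjusted p of 0.0499, the smallest over all its peaks being 0.00011, so that every count below describes how peaks already selected at p under 0.05 are divided. No intron peak in the authors' deposited table had a false discovery rate (FDR) under 0.05 (0% of all listed peaks), the lowest being 0.22. Higher and lower below therefore describe group values, not differences that passed a correction for multiple testing. Markers fixed for cell types gave little to check the cells by: of the smooth muscle markers, Lmod1 held 1 intron peak, the neuronal marker Rbfox3 held 1, and the endothelial, leukocyte, fibroblast and adipocyte markers held 0.

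The gene printed by the authors beside each peak is the one with the nearest start site. It differed from the gene whose intron the annotation names in 731 of 1602 peaks (45.6%). The peak listed under 2610028E06Rik, for example, lies in intron 13 of Grik3. Peaks are therefore described here by the gene that holds the intron (the host gene). A host gene symbol was found for 1231 peaks through the gene identifier, which the authors' tables pair with a symbol, and for 249 by position in the RefSeq table, and 122 peaks stayed unnamed.

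Although all of these peaks lie at least 3004 bp from the start site the authors assigned, 4 of them contained the whole promoter window of a RefSeq gene (250 bp before to 50 bp after its start). These windows are shown because they are the stretches of known sequence that the peaks cover, 2 of them among the higher peaks of Camta1 on chromosome 4. Sequences are from RefSeq (GRCm38.p6), on the gene's own strand, 5′ to 3′, with CG dinucleotides in capitals. The Gm3752 window is chr14:7488601-7488900 on the minus strand, the Gramd1c window chr16:44041959-44042258 on the minus strand, and the Gm30422 and Gm45960 windows chr4:151215651-151215950 and chr4:151222955-151223254 on the plus strand, both within Camta1.
Gm3752: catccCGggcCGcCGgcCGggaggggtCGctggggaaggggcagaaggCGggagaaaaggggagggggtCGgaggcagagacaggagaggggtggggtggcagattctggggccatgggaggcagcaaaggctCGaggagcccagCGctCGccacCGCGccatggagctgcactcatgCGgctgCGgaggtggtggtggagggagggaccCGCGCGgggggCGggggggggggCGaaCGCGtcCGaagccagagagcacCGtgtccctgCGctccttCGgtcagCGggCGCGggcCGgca
Gramd1c: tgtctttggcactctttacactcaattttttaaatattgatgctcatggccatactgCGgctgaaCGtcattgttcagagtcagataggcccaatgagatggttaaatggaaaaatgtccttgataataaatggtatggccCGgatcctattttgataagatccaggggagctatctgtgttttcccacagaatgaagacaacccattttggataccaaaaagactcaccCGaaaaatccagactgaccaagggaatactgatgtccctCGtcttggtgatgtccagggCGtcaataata
Gm30422: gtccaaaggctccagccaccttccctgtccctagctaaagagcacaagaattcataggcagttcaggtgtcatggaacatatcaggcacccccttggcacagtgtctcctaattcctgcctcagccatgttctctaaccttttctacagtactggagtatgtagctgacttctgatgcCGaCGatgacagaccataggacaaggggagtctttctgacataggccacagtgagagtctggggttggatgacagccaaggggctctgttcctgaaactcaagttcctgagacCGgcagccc
Gm45960: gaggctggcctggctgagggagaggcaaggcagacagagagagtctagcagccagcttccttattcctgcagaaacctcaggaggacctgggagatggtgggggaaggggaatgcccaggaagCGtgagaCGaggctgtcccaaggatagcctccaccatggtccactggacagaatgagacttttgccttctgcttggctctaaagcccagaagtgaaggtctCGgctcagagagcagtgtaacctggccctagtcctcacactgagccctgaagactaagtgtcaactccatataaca

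The Gm3752 window held 29 CG dinucleotides at a GC content of 74%, and 12.9% of all 32851 RefSeq promoter windows held as many. The Gramd1c window held 6, against a median of 7 over all windows. Both Camta1 windows held 3, a count that 76.7% of windows reach. The motif TGCCGC, searched on both strands, was in none of the 4 and in 11.6% of all windows. All 4 peaks had more signal in KO cells. The Gm3752 peak had a log2 signal of 4.44 in KO cells against -0.04 in WT cells (p = 0.000914 in the authors' deposited table). The Gramd1c peak stood at 4.64 in KO and 2.10 in WT cells, at the deposited p of 0.0419 by the authors' test. The Camta1 peaks stood at 6.47 in KO against 3.49 in WT cells over Gm30422, and at 7.02 in KO against 4.83 in WT cells over Gm45960. No peak overlapped any of 1005 RefSeq miRNA hairpins.

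The first question was whether intron H3K9me3 differed in 1 direction between the genotypes. Intron peaks were higher in KO cells in 61.3% of cases (982 of 1602, exact binomial 95% interval 58.9 to 63.7%, counting error only), against 61.0% of all listed H3K9me3 peaks. The 620 lower peaks are 38.7%, against 39.0% of all listed. This split was that of the table as a whole: peaks outside introns were higher in 60.9% of 3772 cases, a value inside the interval for introns. Promoter peaks were higher in 69.8% of 663 cases, exon peaks in 79.8% of 89 and intergenic peaks in 58.1% of 2921. Because neighbouring peaks are not independent, these intervals are narrower than the true uncertainty.

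Higher intron peaks had a median log2 signal of 3.64 in KO cells and 0.29 in WT cells. Lower intron peaks had 0.21 in KO cells and 3.46 in WT cells. By these medians the 2 sets were close to mirror images, each with little signal in 1 genotype. Selection at p under 0.05 and the split by direction favour such a pattern, so it is no separate result. Median log2 fold changes were 3.24 for higher and -3.12 for lower intron peaks in the authors' deposited table, against 3.21 and -3.05 over all listed peaks. Signal was at the lowest level of the table in 1 genotype for 493 peaks: 324 of the higher peaks (33.0%) had the WT level of -0.45, and 169 of the lower peaks (27.3%) had the KO level of -0.42. A fold change against such a level depends on how the authors set it, and is no estimate of a ratio. Without these 493 peaks, 658 of the other 1109 (59.3%) were higher in KO cells, with medians of 2.99 for higher and -2.96 for lower peaks.

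**Figure D1:**
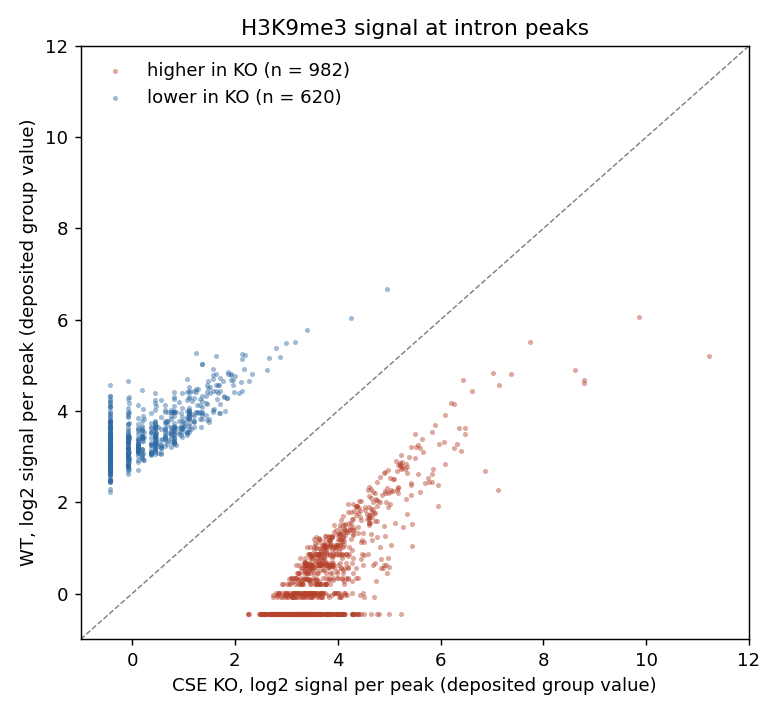
Log2 signal of each of the 1602 intron peaks in KO cells (horizontal axis) and WT cells (vertical axis), 1 point per peak, as deposited by the authors, with equal signal on the dashed line. The rows of points at the lowest levels are the 324 higher peaks at -0.45 in WT cells and the 169 lower peaks at -0.42 in KO cells, and the points of highest signal lie on the KO side.

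Strong and wide peaks were mostly higher in KO cells. Of 125 intron peaks with a log2 signal over all libraries of 4 or more, 103 (82.4%) were higher in KO cells, against 63.8% of 423 peaks from 3 to 4 and 57.8% of 1054 under 3. Of 81 peaks at least 1000 bp wide, 70 (86.4%) were higher, against 67.0% of those from 400 to under 1000 bp and 54.2% of narrower ones. Over all listed H3K9me3 peaks the same order held, with 88.9% higher at a log2 signal of 4 or more and 93.4% at 1000 bp or wider, so the order is shared with the rest of the table. The share also differed with the authors' p-value. At p under 0.01, a level that 426 intron peaks (26.6%) passed against 24.9% of all listed peaks, 71.8% were higher, against 57.5% of the other 1176 (authors' deposited table). At p under 0.001 there were 27 intron peaks (1.69%, against 2.07% of all listed), 21 of them higher. An FDR under 1 was reached by 33 intron peaks (2.06%, against 2.18% of all listed), 29 of them higher and 4 lower. Over all listed peaks, 74.4% were higher at p under 0.01, 86.5% at p under 0.001 and 89.7% at an FDR under 1. The intron shares at these levels were 71.8%, 77.8% and 87.9%, so this lean too is shared with the rest of the table.

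**Figure D2:**
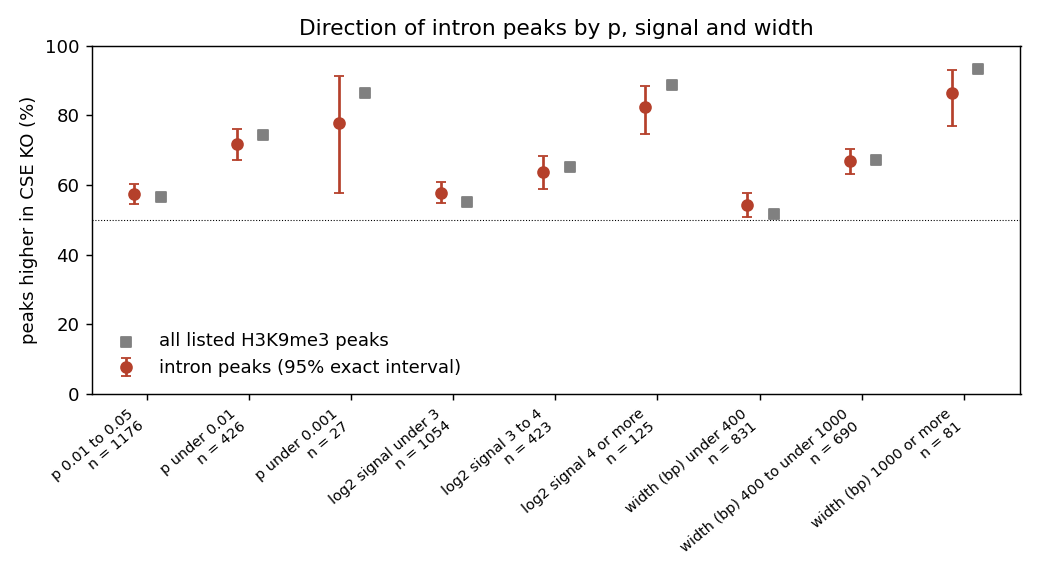
Share of peaks higher in KO cells (vertical axis, percent) for intron peaks by p-value, log2 signal over all libraries and width. Exact 95% binomial intervals show counting error only. Squares give the same share of all listed H3K9me3 peaks. The share of intron peaks is 82.4% at a log2 signal of 4 or more and 86.4% at 1000 bp or wider, and lowest, at 54.2%, under 400 bp.

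The intron peak of smallest p lay in Nphp4, which encodes a protein of the ciliary transition zone. This peak of 3243 bp at chr4:152531559-152534800 (intron 10) had a log2 signal of 6.87 in KO cells against 2.68 in WT cells (p = 0.000133, FDR 0.22 in the authors' deposited table). Of the 10 higher genes of smallest p (predicted genes left out), Nphp4 and Efcab6 had a WT signal above the lowest level. The Efcab6 peak had 5.44 in KO against 1.05 in WT cells. The other 8 genes stood at the lowest level in WT cells. Among these, the transcription factor gene Zfp423 had 5.23 in KO against -0.45 in WT cells, the kainate receptor subunit gene Grik3 had 5.00 in KO against -0.45 in WT cells, and the adhesion receptor gene Adgrd1 had 4.80 in KO against -0.45 in WT cells. KO signal in the remaining 5, Lrp1b, Grm8, Pcdh15, Cdk14 and Unc80, was between 4.27 and 4.37. They encode an LDL receptor relative, a metabotropic glutamate receptor, a protocadherin, a cyclin-dependent kinase and a part of the NALCN sodium leak channel complex.

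All 10 lower genes of smallest p (predicted genes left out) stood at the lowest level in KO cells. Among those left out, 1700025G04Rik had 0.20 in KO against 4.47 in WT cells (p = 0.000964 in the authors' deposited table). Tshz2, which encodes a zinc-finger homeobox transcription factor, came first with a log2 signal of -0.42 in KO against 4.56 in WT cells (p = 0.000265, FDR 0.302 in the authors' deposited table). Its peak is at chr2:169645972-169646392 in intron 1. The next 9 genes had p-values from 0.00198 to 0.00274 in the authors' deposited table and an FDR of 1. In order of p they were Snd1, Trpm3, Fbn2, Grik1, Plppr5, Plcl2, Rerg, Foxp2 and Ctnnd2. They include a cation channel (Trpm3), an extracellular matrix fibrillin (Fbn2), a kainate receptor subunit (Grik1) and a forkhead transcription factor (Foxp2). WT signal in these 9 lay between 3.58 in Ctnnd2 and 4.32 in Plcl2. Trpm3 was not of 1 direction, since another of its peaks had 4.06 in KO against -0.45 in WT cells.

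Peaks of highest signal were another set. The strongest intron peak of all, 687 bp in intron 1 of Filip1l (encoding a filamin A interacting protein) at chr16:57391115-57391800, had a log2 signal of 11.23 in KO against 5.20 in WT cells (log2 fold change 6.03, p = 0.00604, FDR 1 in the authors' deposited table). A peak of 8359 bp in the predicted gene Gm16090 had 9.86 in KO against 6.07 in WT cells. A peak in Jarid2, a cofactor of Polycomb repressive complex 2, had 8.80 in KO against 4.62 in WT cells. These values lie well above the lowest level in both genotypes. The authors' test gave p = 0.00267 for the Gm16090 peak and 0.00824 for the Jarid2 peak. These and the p of Filip1l are larger than those of the 10 higher genes of smallest p. Whether 1 library carries any of these peaks could not be measured. The strongest lower peaks were weaker and differed less: a peak in Prkdc, the catalytic subunit of DNA-dependent protein kinase, had 4.96 in KO against 6.67 in WT cells. A peak in an unnamed host, nearest to the start of Cables1, had 4.26 in KO against 6.03 in WT cells, and the strongest in Tshz2 had 3.40 in KO against 5.77 in WT cells. By the authors' test, p was 0.0473 for the Prkdc peak, 0.0442 for the peak near Cables1 and 0.0355 for the Tshz2 peak.

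The 1480 peaks with a named host fell in 863 genes, of which 632 held 1 peak and 231 held 2 or more. A small number of genes held many. The 36 genes with 5 or more had 349 peaks between them, and Tshz2 alone had 65, all lower in KO cells. Its 65 peaks lay across 333 kb of the gene and covered 39.4 kb, with a log2 signal of -0.42 to 3.40 in KO cells (median 0.81) and 3.05 to 5.77 in WT cells (median 4.02). No Tshz2 peak had as much signal in KO as in WT cells, and 11 of the 65 stood at the lowest KO level. The fold changes lay between -4.98 and -2.27 on the log2 scale in the authors' deposited table. These peaks made up 10.5% of all lower intron peaks.

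Zfp423, a multi-zinc-finger transcription factor gene active in neural and adipocyte development, held the largest number of higher peaks. Its 28 peaks, spread over 213 kb, had 3.33 to 6.40 in KO cells (median 4.31) and -0.45 to 3.13 in WT cells (median 0.65). Camta1, encoding a calmodulin-binding transcription activator, followed with 21 higher peaks. These had 2.87 to 7.38 in KO cells (median 5.18) and -0.45 to 4.83 in WT cells (median 2.21). In WT cells, 5 of the 21 Camta1 peaks and 5 of the 28 Zfp423 peaks stood at the lowest level. Igsf21, a synaptic immunoglobulin superfamily gene, had 12 higher peaks with a median of 3.87 in KO and 0.01 in WT cells. Asic2, an acid-sensing ion channel gene, also had 12 higher peaks, with medians of 3.60 in KO and 0.01 in WT cells. Adgrd1 had 10 higher peaks with medians of 3.99 in KO and -0.22 in WT cells.

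Grin2b, an NMDA receptor subunit gene, came after Tshz2 among genes with lower peaks. All of its 10 peaks were lower, with medians of 0.32 in KO and 3.68 in WT cells. Tiam1, an activator of the GTPase Rac, had 8 lower peaks with medians of 1.08 in KO and 3.89 in WT cells. Cntnap2, a neurexin family gene of 2240 kb, differed from these in holding 11 peaks of mixed direction, 6 higher and 5 lower. Mixed genes were common: of the 231 genes with 2 or more peaks, 147 (63.6%) had peaks of 1 direction, 109 of them higher and 38 lower, and 84 had both. Grm7, a metabotropic glutamate receptor gene, had 2 higher and 5 lower peaks, and Cdh4, a cadherin gene, had 7 higher and 2 lower. Of 68 genes with 4 or more peaks, 27 had both directions. In the RNA-binding protein gene Rbms3, a peak in intron 1 had 3.67 in KO against -0.45 in WT cells and a peak in intron 12 had -0.07 in KO against 3.97 in WT cells. In the sialyltransferase gene St6galnac3, the pair of smallest p had 3.93 in KO against -0.45 in WT cells and -0.42 in KO against 3.65 in WT cells. The peaks of Cntnap2 lay across 1720 kb and those of Grm7 across 592 kb.

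**Figure D3:**
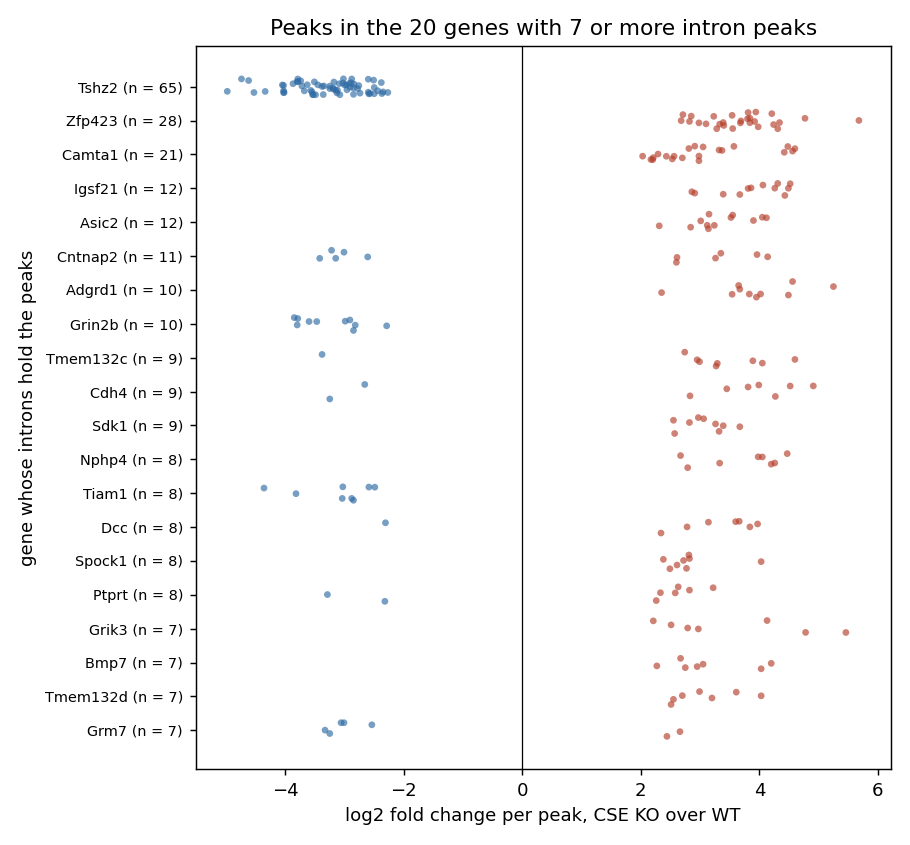
Log2 fold change of each intron peak (KO over WT, horizontal axis, authors' values) in the 20 genes with 7 or more intron peaks, 1 point per peak, shifted at random in height within each gene. All 65 points of Tshz2 and all 10 of Grin2b are below 0, all 28 of Zfp423 and all 21 of Camta1 are above it, and Cntnap2 has 6 above and 5 below.

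Host genes were long. The 708 protein-coding hosts with a RefSeq entry had a median length of 212 kb, against 17.2 kb over all 21887 protein-coding genes in the table, and 69.2% of them exceeded 100 kb against 11.1%. A longer gene offers more intron, and the peaks were not weighted by intron length. Protein-coding hosts with only higher peaks had a median length of 203 kb and hosts with only lower peaks 148 kb. Peaks lay in first introns in 529 cases (33.0%), which was 30.9% of higher and 36.5% of lower peaks. That gap rests on 1 gene: without Tshz2, 30.3% of the lower peaks were in first introns. Peaks in the last intron numbered 254 (15.9%). The median distance to the nearest start site was 25.5 kb, and 1232 peaks (76.9%) lay at least 10 kb away.

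Neighbouring peaks mostly had the same direction. Of 195 pairs of consecutive intron peaks at most 10 kb apart, 183 (93.8%) shared their direction, and 108 of 120 (90.0%) did without the peaks of Tshz2 and Zfp423. The share was 85.2% from 10 to 50 kb, 73.8% from 50 to 100 kb, 61.3% from 100 to 1000 kb and 56.4% beyond 1000 kb. Joining consecutive peaks of 1 direction at most 100 kb apart gave 1193 runs, of which 711 (59.6%) were higher. Of these, 158 runs had 2 or more peaks and held 567 peaks, and the other 1035 were single peaks. Counted by runs in place of peaks, the division between higher and lower was therefore much the same.

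**Figure D4:**
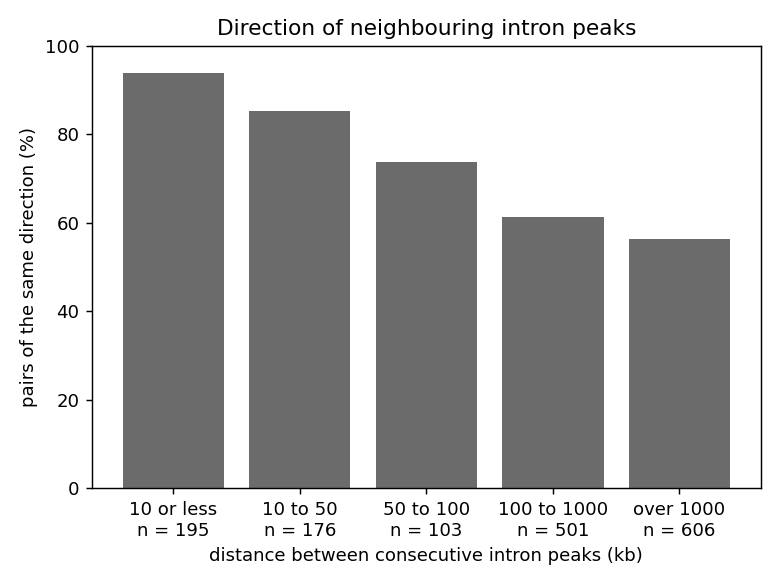
Share of consecutive intron peaks with the same direction (vertical axis, percent) by the distance between them (horizontal axis, kb), with the number of pairs under each bar. It is 93.8% at 10 kb or less and 56.4% beyond 1000 kb.

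The longest run was the lower one at Tshz2, with 70 peaks over 492 kb (chr2:169486614-169979065), 65 in Tshz2 and 5 in the neighbouring Gm14249 and Gm11011. Its median log2 signal was 0.81 in KO and 4.04 in WT cells. Among runs of higher signal, Zfp423 had 28 peaks and Camta1 17. A run of 9 crossed from Kcnab2, a potassium channel subunit gene, into Nphp4 with medians of 4.68 in KO and 1.07 in WT cells. Another of 8 crossed from Mpped1 into Efcab6, with medians of 4.41 in KO and 0.96 in WT cells. Bmp7, which encodes a secreted bone morphogenetic protein, had a dense run of 7 peaks over 33.8 kb, with 5.42 in KO and 2.37 in WT cells as medians. A weaker run of 5 joined Ksr2, a Ras pathway scaffold gene, with Nos1, the neuronal nitric oxide synthase gene, with medians of 3.63 in KO and 0.77 in WT cells. Of the 18 runs with 5 or more peaks, 15 were higher and 3 lower, the lower ones being those of Tshz2, Grin2b and Tiam1.

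Direction was uneven between chromosomes. Intron peaks were higher in KO cells in 92.7% of 96 cases on chromosome 8, 88.1% of 84 on chromosome 4 and 85.5% of 124 on chromosome 5. Peaks outside introns leaned the same way, with 86.8% of 220 higher on chromosome 8 and 85.7% of 279 on chromosome 5. On chromosome 4 most of them were higher too, but a smaller share than of intron peaks. The lean on these chromosomes is therefore shared with the rest of the table. Intron peaks showed the reverse on chromosome 6, where 39 of 135 (28.9%) were higher, and on chromosome 2, where 56 of 181 (30.9%) were. Counted by runs, chromosome 6 was much the same, with 30.1% of 103 runs higher, and peaks outside introns there were higher in 27.1% of 310 cases. On chromosome 2 the 65 Tshz2 peaks carried much of it: without them 56 of 116 peaks (48.3%) were higher. By runs, 42.7% of its 89 runs were higher, and so were 47.8% of its 337 other peaks. On chromosome 4, 48 of the 84 peaks lay in 4 genes with 5 or more (Camta1, Igsf21, Nphp4 and Grik3), and 74.4% of its runs were higher. Leaving out chromosomes 2 and 6, chosen after their low shares were seen, placed 887 of 1286 intron peaks (69.0%) on the higher side. That rise was fixed by the choice and is no separate result.

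**Figure D5:**
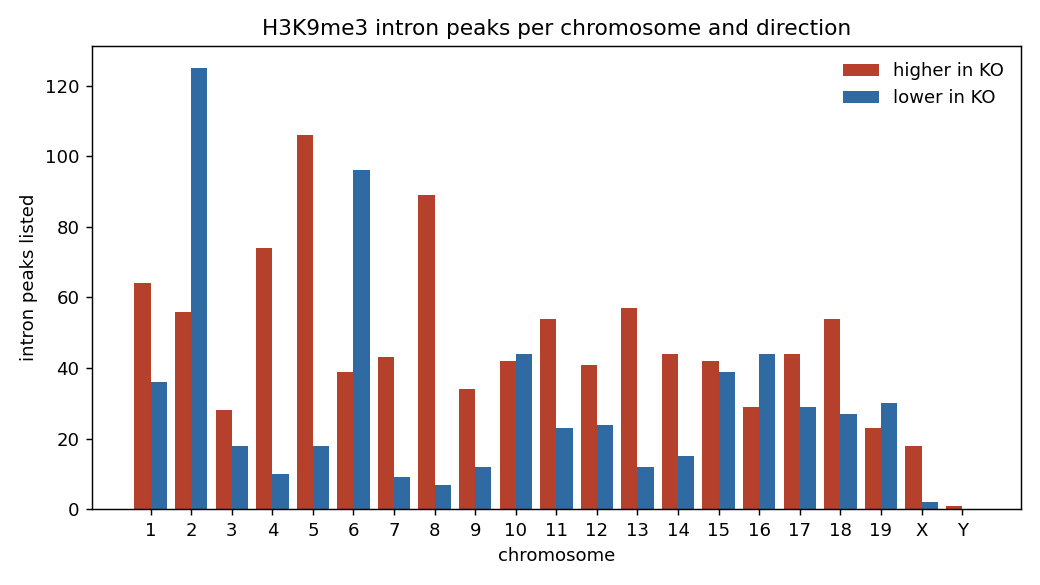
Number of intron peaks higher (left bar of each pair) and lower (right bar) in KO cells on each chromosome. Lower peaks are the larger number on chromosomes 2, 6, 10, 16 and 19, with 96 lower against 39 higher on chromosome 6.

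Each direction count of a gene list below stands against 61.0% higher over all listed peaks. Several peaks of 1 gene are not independent, and some genes are in more than 1 list. In the list of contractile and sarcomere genes, the 12 intron peaks, in 5 genes, were higher in KO cells. That list does not cover all genes of muscle or of proteins that bind dystrophin. Outside it, the actin-binding Xirp2, the junctophilin Jph1 and the syntrophins Sntb1 and Sntg1, which bind dystrophin and its relatives, each held 1 lower peak. Their log2 fold changes were -3.53, -2.78, -2.86 and -3.24, in that order, by the authors' deposited table. Also outside it, Myo18b, Tnni3k and Dtna each held 1 higher peak, with log2 fold changes of 3.86, 3.45 and 2.94. Muscle genes outside the list were not counted as a set. Dystrophin (Dmd), which links the cytoskeleton to the membrane, held 4 with a log2 signal of 2.79 to 3.42 in KO and -0.45 to 0.77 in WT cells. Its membrane partner delta-sarcoglycan (Sgcd) also held 4, with 3.37 to 3.62 in KO and -0.45 to 1.14 in WT cells. The calcium release channel gene Ryr2 held 2, at 3.89 and 4.12 in KO and 1.07 and 1.41 in WT cells. Leiomodin (Lmod1), a smooth muscle actin nucleator, held 1 with 4.06 in KO against 0.55 in WT cells (p = 0.00901 in the authors' deposited table), and zeta-sarcoglycan (Sgcz) held 1 with 3.20 in KO against -0.45 in WT cells. The median log2 fold change of these 12 peaks was 3.22 by the authors' deposited table, close to the 3.24 of all higher intron peaks.

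Genes of the extracellular matrix and its proteases held 29 intron peaks in 19 genes, 23 higher (79.3%, against 61.0% of all listed peaks) and 6 lower. By gene, 14 had only higher and 5 only lower peaks, and 8 of the 23 higher peaks were in Spock1. The secreted proteases Adamts18 and Adamts12 had 4.14 in KO against -0.04 in WT cells and 3.61 in KO against -0.45 in WT cells, and the matrix proteoglycan gene Spock1 had medians of 4.18 in KO and 1.46 in WT cells. Fbn2 was on the lower side, with -0.42 in KO against 3.80 in WT cells. Of 11 peaks in genes of the TGF-beta, BMP, Wnt and Notch pathways, 10 were higher, 7 of them in Bmp7. The others were in Ltbp1 and Ltbp2, which encode latent TGF-beta binding proteins, and in Smad3, a TGF-beta signal transducer with 3.50 in KO against 0.77 in WT cells. The activin receptor gene Acvr1c held the lower peak, with -0.42 in KO against 3.18 in WT cells.

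Cell adhesion genes held 39 peaks in 13 genes, 26 higher and 13 lower, and 7 of these genes had both. Synaptic and neuronal adhesion genes formed the largest list, with 122 peaks in 54 genes, 71 higher and 51 lower (58.2% higher). Neurotransmitter receptor genes held 60 peaks in 22 genes, 34 higher and 26 lower, with Grik3, Grm8 and the muscarinic receptor Chrm3 among the higher and Grik1 and Grin2b among the lower. Kainate receptor subunits were thus found on either side. Ion channel genes had 30 higher and 22 lower peaks in 29 genes, led by Kcnab2 with 5.00 in KO against 0.58 in WT cells (p = 0.000535, FDR 0.432 in the authors' deposited table). The inward rectifier Kcnj15 had the reverse, with 0.44 in KO against 4.02 in WT cells. Axon guidance genes had 14 higher and 5 lower peaks in 10 genes, 7 of the higher ones in the netrin receptor gene Dcc.

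Developmental transcription factor genes held 18 higher and 73 lower peaks, but 65 of the lower ones were in Tshz2. The remaining 17 genes had 18 higher and 8 lower peaks. Zfp423 is not in this list, and its 28 higher peaks are counted with the zinc-finger protein genes. Foxp2 had -0.42 in KO against 3.75 in WT cells, whereas the homeobox gene Zfhx3 had 4.91 in KO against 1.48 in WT cells. Zinc-finger protein genes held 34 higher and 9 lower peaks in 14 genes, with 28 of the higher ones in Zfp423, so that 5 of these genes had only higher and 9 only lower peaks. Vomeronasal and olfactory receptor genes had 4 higher and 7 lower peaks in 10 genes, and kinase and phosphatase genes of receptor signalling had 19 of each.

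Among genes of vascular signalling, the cyclic nucleotide list had 14 higher and 6 lower peaks in 13 genes, of which 7 had only higher, 3 only lower and 3 both. Prkg1, the cGMP-dependent kinase that mediates nitric oxide relaxation, held 4 higher and 1 lower, its peak of smallest p with 3.04 in KO against -0.45 in WT cells. The list of angiotensin and vasoactive genes had 9 higher and 3 lower peaks in 5 genes, against 61.0% higher over all listed peaks. These include the 4 higher and 1 lower peaks of Prkg1, also counted in the cyclic nucleotide list. Adra1a is also counted among the neurotransmitter receptor genes. By gene there was no lean, with 2 genes only higher, 2 only lower and 1 of both directions. In it the regulator of G protein signalling Rgs6 had 4.08 in KO against -0.45 in WT cells, and the mineralocorticoid receptor gene Nr3c2 had -0.42 in KO against 3.16 in WT cells. The list of inflammation genes had 4 higher and 3 lower peaks, including the cytokine gene Il33 with -0.42 in KO against 2.95 in WT cells. Its higher peaks in Il1rapl1 and Il1rapl2 are also counted above in the list of synaptic and neuronal adhesion genes. Chromatin regulator genes had 4 higher and 1 lower peaks in 5 genes: Jarid2 (above), the DNA demethylase gene Tet2 with 2.98 in KO against -0.45 in WT cells, the histone deacetylase gene Hdac8 with 3.77 in KO against 0.46 in WT cells, Smarca1, and Hdac9 on the lower side with 0.11 in KO against 3.23 in WT cells. Solute carrier and ABC transporter genes had 21 higher and 12 lower peaks in 24 genes, the cholesterol transporter gene Abcg1 having 4.74 in KO against 0.28 in WT cells. Genes of hydrogen sulfide and methionine metabolism held 0 intron peaks. By the authors' deposited table, no peak of any of these lists had an FDR below 0.05.

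The lists were also set beside H3K9ac, a mark of active chromatin measured in the same cells by separate immunoprecipitations. Of 963 host gene identifiers, 211 (21.9%, and 3.38% of the 6250 genes listed for H3K9ac) also had an H3K9ac peak. Over the 4283 genes of all listed H3K9me3 peaks, counting both host genes and genes of the nearest start site, the share was 9.46%. The gene sets were built differently, and the host genes are long, so the shares are given side by side and their difference was not tested. Of all listed H3K9ac peaks, 22.8% were higher and 77.2% lower in KO cells. Among the 102 shared genes with only higher H3K9me3 intron peaks, 73 (71.6%) had only lower H3K9ac peaks. Among the 91 with only lower H3K9me3 intron peaks, 63 (69.2%) did. Counted in the same way, 4563 of all 6250 H3K9ac genes (73.0%) had only lower peaks. Whether these shares differ was not tested. Of the intron peaks, 0 overlapped a listed H3K9ac peak, 41 (2.56%) lay within 10 kb of one, and the median distance was 385 kb. Over all listed H3K9me3 peaks, 4 of 5373 overlapped one, 118 (2.20%) lay within 10 kb, and the median distance was 442 kb, so that the intron values were close to those of the table. Both tables hold peaks selected at p under 0.05, and where the marks lie outside these selections is not shown. Camta1 had 2 H3K9ac peaks, both higher in KO cells, with log2 fold changes of 1.63 and 1.86, and the DNA repair gene Mgmt, with 6 higher H3K9me3 intron peaks, had 1 lower H3K9ac peak at -2.94, both as given by the authors' deposited table. For H3K4me3, a mark of active promoters whose table has no direction, 14 host genes (1.45%, and 3.05% of 459 genes) were shared, and no intron peak lay within 10 kb of a listed peak.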

How the data were processed

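ChIP-seq of H3K9me3 covered 3 immunoprecipitated and 3 input libraries per genotype. CASAVA 1.4 and mm9 are named by the submitters' processing notes. Not given in the sources used here are the aligner, the peak caller, the normalisation and the differential test. Per the file headers, each peak has a log2 signal (all libraries, KO, WT), a log2 fold change, an FDR and a p-value, all computed by the authors. The log2 fold change equalled the KO minus the WT value within 0.01. Listed widths were 1 bp above the span of the coordinates in all 1602 intron peaks. Coordinates are the authors' and are taken as GRCm38, since 1110 of 1231 peaks (90.2%) with a host found by identifier lay within that gene in RefSeq GRCm38.p6. That check concerns genes, and no peak sequence was compared with a genome.

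Intron, intron number and host transcript were read from the authors' annotation. Host symbols came from the identifiers paired with symbols in the authors' tables, otherwise from the RefSeq protein-coding gene spanning the peak's middle (both agreed in 1006 of 1020). With no values per sample, the planned count test was replaced by counts and medians of the authors' values, as planned for that case, with exact (Clopper-Pearson) 95% intervals. Functions were tested on simulated data. Python 3.11.15, pandas 2.3.3, numpy 2.4.6, scipy 1.17.1 and matplotlib 3.10.9 were used. Members, gene lists and rules were chosen with earlier results of these data known. Named genes are, per direction, the 10 host genes of smallest p (predicted genes left out) and the 3 peaks of highest signal. Also named are the 8 genes with most peaks and up to 4 genes per list. The rule further takes in genes with at least 4 peaks in all and both directions among them. Genes of runs, the Camta1 and Mgmt H3K9ac peaks, Ryr2, Smad3 and other genes outside the rule were named after their values were seen. So were Xirp2, Jph1, Sntb1, Sntg1, Myo18b, Tnni3k, Dtna and 1700025G04Rik. Peak sequences were not analysed here, and RefSeq promoter windows are shown in place of those planned. The result of 1 gene list is not reported here.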

Additional observations from a re-analysis of the deposited data

How the results depend on the processing

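No paired analysis was possible because the deposited tables give 1 value per genotype and none per sample, and for the same reason no replicate could be left out. Stricter selections kept higher peaks in the majority. The selections by p did so over all listed peaks too, with 74.4% higher at p under 0.01 and 86.5% at p under 0.001. At p under 0.01 there were 306 higher peaks (71.8%) with medians of 3.92 and -3.86 (log2 fold change of higher and lower peaks), and at p under 0.001 there were 21 (77.8%) with 4.72 and -4.52. Without peaks at the lowest level the medians were 2.99 and -2.96. At a log2 signal of at least 3 there were 373 higher peaks (68.1%) with 3.04 and -2.96. With 1 peak per gene there were 577 with 3.40 and -3.18. At an absolute log2 fold change of at least 3 there were 635 with 3.56 and -3.38. Leaving out chromosomes 2 and 6, added after seeing the data, gave 69.0% higher, a rise fixed by the choice of these chromosomes. The first-intron share was 30.3% at least 10 kb from a start site. Genes with 2 or more peaks numbered 46 at p under 0.01 and 149 without the lowest level, against 231. Peaks in genes also listed for H3K9ac numbered 178 with H3K9ac intron peaks alone, against 333. The cause of the other shifts was not tested, beyond the smaller number of peaks each selection leaves and, for p and fold, its direct link to the fold change. Merging neighbours within 100 kb, autosomes, leaving out first introns, and leaving out Tshz2 and Zfp423 (added after seeing the data) moved the share higher by at most 2.0 percentage points. Low signal limits most of these peaks: 1054 of 1602 had a log2 signal under 3, and the spread between samples is unknown.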

Other observations

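On the X chromosome, 18 of 20 intron peaks (90.0%) were higher in KO cells, against 78.7% of 94 X-linked peaks outside introns. Besides the 4 peaks in Dmd, they include peaks in the synaptic and neuronal adhesion genes Il1rapl2 and Il1rapl1 and in the deacetylase gene Hdac8. The Il1rapl2 peak had a log2 signal of 3.97 in KO against 0.87 in WT cells, and the Il1rapl1 peak 3.25 in KO against 0.29 in WT cells.

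Some host genes were also printed by the authors beside H3K9me3 peaks outside introns. Tiam1, Grik3 and Sdk1 were each printed beside 6 such peaks, and Tshz2, Nphp4 and Efcab6 beside 5. Camta1, Asic2, Adgrd1, Grin2b and Bmp7 were printed beside 0. These counts use the gene of the nearest start site, and whether such a peak lies within the gene was not examined.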
